A study of Sus scrofa with 5 samples.

Results

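Axon guidance ligands and receptors were described across neuronal nuclei of pig dorsal root ganglia. Members were the rows of the count table whose symbol began with SEMA, PLXN, NRP1, NRP2, EPHA, EPHB, EFNA, EFNB, UNC5, NTN, SLIT1 to SLIT3, ROBO or DCC, with the SLITRK genes left out. This gave 71 of 30477 rows. UNC50 and UNC5CL met the spelling of the rule but are not guidance receptors, so 69 genes (36 ligands and 33 receptors) are guidance genes. Of these 69, 58 reached 50 UMIs (unique molecular identifiers, each standing for 1 captured RNA molecule) over all nuclei.

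The sensory neurons for touch, body position, temperature, itch and pain have their cell bodies in the dorsal root ganglia. Nuclei came from 5 Landrace pigs, all male and untreated and forming 1 group, and from their ganglia at thoracic and lumbar levels. Isolation differed in the detergent (IGEPAL CA-630 or Triton X-100) and in the clean-up (iodixanol gradient, or magnetic or fluorescence-based enrichment for the neuronal protein NeuN). Barcode endings split the 2189 nuclei into 6 libraries that the sources do not tie to pigs or protocols, so the table was 1 pooled sample with no replicates, and no test could be run.

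Guidance ligands steer growing axons by binding receptors on the growth cone. Secreted class 3 semaphorins act through neuropilins paired with A-type plexins, and PLXND1 binds SEMA3E directly. Membrane-bound semaphorins bind plexins directly. Netrins attract through DCC and repel through UNC5 receptors. SLITs repel through ROBO receptors, and ephrins signal through EPH receptor tyrosine kinases, in both directions at cell contacts. In sensory ganglia several of these systems are known to set where axons of touch, muscle and pain neurons end in the spinal cord and the skin, and many stay expressed in the adult.

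Nuclei were grouped by 8 marker genes. TRPM8 is the cold and menthol channel, IL31RA an itch cytokine receptor, GFRA2 the neurturin co-receptor, ADCYAP1 the neuropeptide PACAP, KIT the stem cell factor receptor, NTRK2 and NTRK3 the receptors for BDNF and neurotrophin-3, and PVALB the calcium buffer parvalbumin. Nuclei were clustered without the guidance genes, and each of the 21 clusters joined the marker with the highest score. The groups held 512 (TRPM8), 267 (IL31RA), 220 (GFRA2), 510 (ADCYAP1), 128 (KIT), 173 (NTRK2), 169 (NTRK3) and 210 nuclei (PVALB). Levels are UMIs per 1000000 UMIs of a group (CPM), with 95% intervals that cover counting error only. CPM takes no account of gene length, so levels are compared between groups and not between genes. More RNA of a gene per nucleus and more nuclei that hold it cannot be told apart in a group's CPM.

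Median depth ran from 1821 UMIs per nucleus in the TRPM8 group to 9002 in the IL31RA group. The TRPM8 group includes a shallow cluster of 306 nuclei (304 from library 1, median 1458 UMIs) led by APOE, APOA1 and VIM, with no TRPM8-list marker among its top 10 genes. Of the NTRK2 nuclei, 150 came from library 3, and the PVALB nuclei came mainly from libraries 1, 3 and 4. The 4 satellite glia markers summed to 204 CPM in the NTRK3 group and 2478 CPM in the PVALB group, while endothelial markers stayed at or below 41.3 CPM. Within groups they were 1652 to 3146 CPM in library 1, against 112 to 462 CPM in libraries 3, 5 and 6. In library 4 they were at 4415 CPM in the PVALB group, the highest value of any group and library with 10 nuclei, and at 218 and 183 CPM in the ADCYAP1 and NTRK3 groups. Their part in the results was not tested. The TRPM8, IL31RA, GFRA2, ADCYAP1 and PVALB marker lists each summed highest in the group of that name. Each list includes the marker that placed the clusters, so this was in part fixed in advance. Some other list members were highest elsewhere. ETV1 of the PVALB list was at 397 CPM in the IL31RA and 353 CPM in the PVALB group. In the TRPM8 group TRPV1 was at 72.6 CPM (36.2 in ADCYAP1) and ZNF521 at 545 CPM (417 in GFRA2). The KIT, NTRK2 and NTRK3 lists, which include the neurofilament NEFH, summed highest in the PVALB group.

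The guidance set took 126418 UMIs, 0.732% of all. ROBO2 alone held 44.3% of these and the ROBO family 50.2%. Plexins held 14.6%, SLITs 6.63%, class 3 semaphorins 4.74% and EPHA receptors 4.71%. The share of a group's UMIs in guidance genes was highest in the TRPM8 group, at 1.21%, and lowest in the PVALB group, at 0.277%. The first place rests on ROBO2: with ROBO2 left out, the TRPM8 share within library 3 was 0.413%, below 0.527% in the NTRK2 and 0.924% in the NTRK3 group. The PVALB share was low in libraries 1, 3 and 4, at 0.284%, 0.178% and 0.274%. Within library 3, which holds all 8 groups, the next lowest share was 0.501% in the IL31RA group. Of the 59 members with 50 UMIs, 17 had their highest level in the NTRK3 group, 10 in KIT, 7 each in IL31RA and NTRK2, 6 in ADCYAP1, 5 in GFRA2, 4 in PVALB and 3 in TRPM8. The PVALB count includes UNC50. How the highest groups of all genes were spread was not computed, so these counts only describe the members.

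Every group was then set against the other 7. A gene was called when its CPM was at least 2-fold apart, among the 13304 genes with at least 50 UMIs. A member that reached 50 UMIs mainly through 1 group had to differ, so the counts describe and support nothing. In the NTRK3 group 18 of 58 guidance genes were called higher, or 31.0%, where the share over all genes was 13.3%. In the NTRK2 group 10 were higher, beside a background of 6.64%, and in the KIT group 8 were higher, beside 4.89%. The IL31RA group had 6 higher, with 2.91% over all genes, and the ADCYAP1 group 4, with 1.98%. The GFRA2 and TRPM8 groups had 3 each, where the background was 3.31% and 2.49%. The PVALB group had 5 higher, a share of 8.62% that lay below its background of 17.5%.

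Calls in the lower direction were spread differently. The KIT group had 22 of 58 guidance genes at least 2-fold lower (background 11.8%), the GFRA2 group 20 (8.52%), the ADCYAP1 group 19 (9.84%) and the PVALB group 20 (26.8%). The TRPM8 group had 14 lower (7.37%) and the IL31RA group 11 (6.44%). The NTRK2 and NTRK3 groups had 12 and 11 lower, shares of 20.7% and 19.0% that lay at their backgrounds of 20.3% and 19.6%. The KIT group was below the sum of the other 7 for UNC5D, ROBO1, SLIT2, EPHA7, SEMA3A and NTNG1 among others, and it was at the same time the highest group for DCC, EPHB1, SLIT1 and NRP2.

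**Figure D1:**
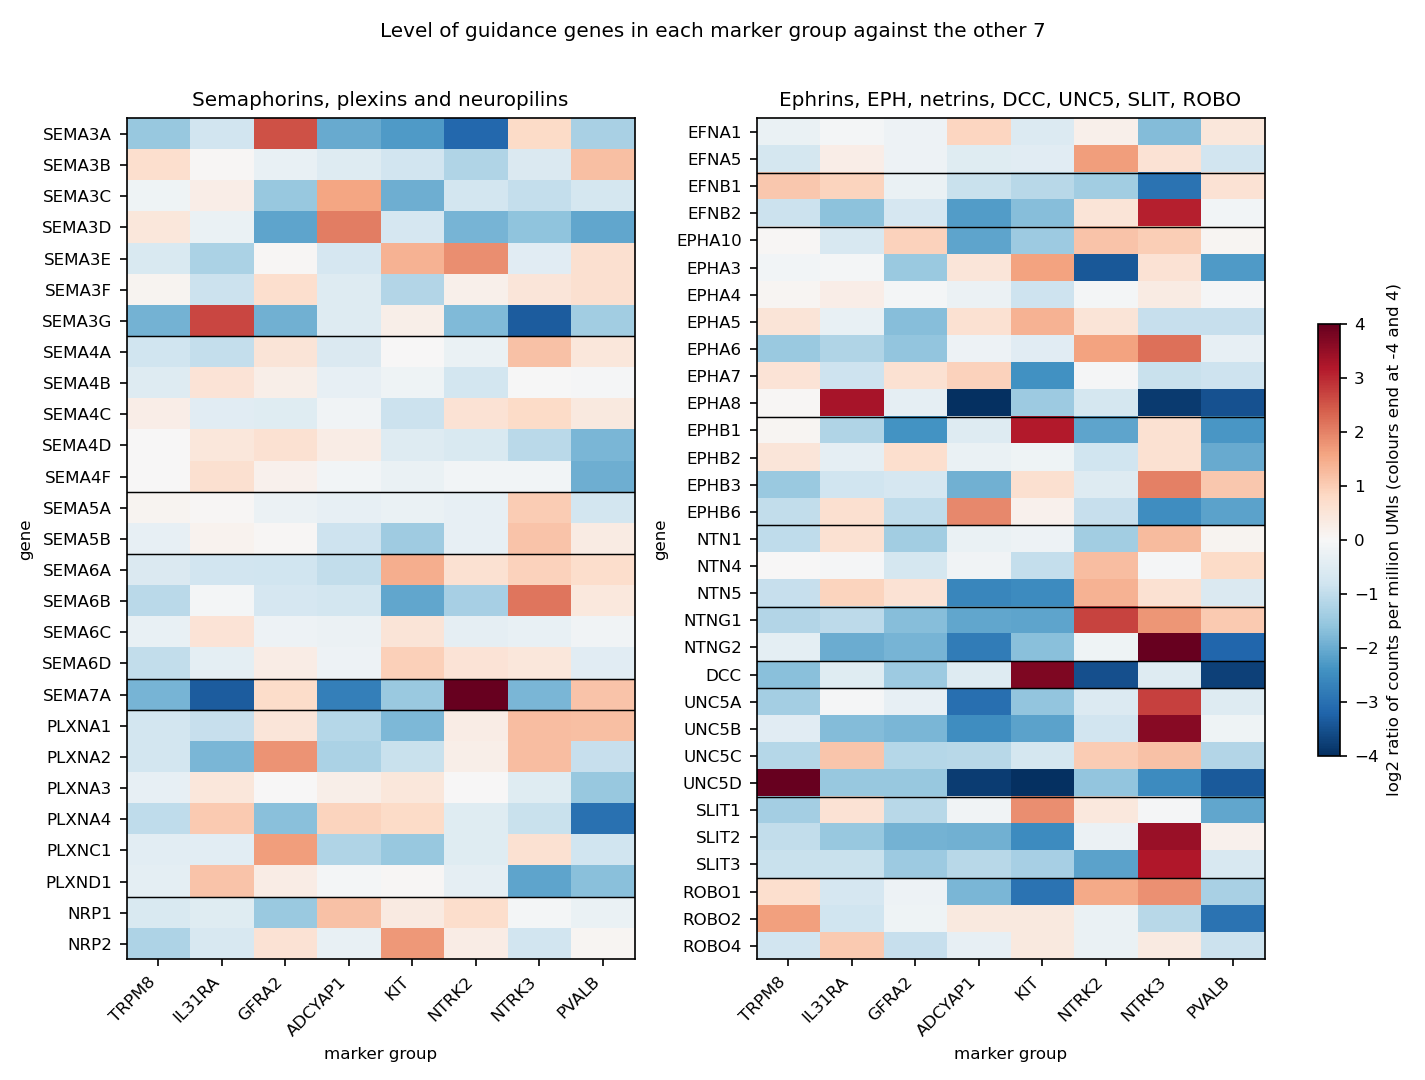
Log2 ratio of CPM in each marker group (columns) over the other 7 groups for the 58 guidance genes with at least 50 UMIs (rows, ordered by family); red is higher and blue lower, and colours end at -4 and 4. The NTRK3 column holds the most red cells (18 genes at least 2-fold higher), and UNC5D stands out in the TRPM8 column at 4.80.

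The KIT, NTRK2, NTRK3 and PVALB groups (680 nuclei, called the KIT-PVALB side) were also summed and compared with the TRPM8, IL31RA, GFRA2 and ADCYAP1 groups (1509 nuclei, the TRPM8-ADCYAP1 side). The split followed markers usually tied to larger and to small-diameter neurons. The data bear this out in part only. NEFH, which marks large myelinated neurons, was at 5937 CPM in the PVALB and 2163 CPM in the NTRK2 group. It was at 548 CPM in the NTRK3 group and at 372 CPM in the KIT group, the lowest of all 8. On the other side NEFH was at 1026 CPM in the GFRA2, 741 CPM in the TRPM8, 670 CPM in the IL31RA and 494 CPM in the ADCYAP1 group. The NTRK3 group thus lay below all of these but the ADCYAP1 group. The KIT group also carried SCN10A, a nociceptor sodium channel, at 791 CPM. Its TRPM8 level, 274 CPM, was second to the 643 CPM of the TRPM8 group. The side comparison was therefore repeated without the KIT group, a choice made after seeing the data. It was not repeated without the NTRK3 group.

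Of 58 guidance genes, 16 (27.6%) were at least 2-fold higher on the KIT-PVALB side, where 7.43% of all genes were. On the TRPM8-ADCYAP1 side 9 (15.5%) were at least 2-fold higher, where 4.2% of all genes were. The median log2 ratio was 0.35 over the guidance genes and 0.06 over all genes. Highest toward the KIT-PVALB side were NTNG2 (log2 2.78), UNC5B (2.64), SLIT2 (2.61), NTNG1 (2.46) and EFNB2 (2.31). Toward the TRPM8-ADCYAP1 side they were EPHA8 (-4.67), UNC5D (-3.12), EPHB6 (-2.48) and SEMA3D (-1.77). In 22 of these 25 genes every library with enough UMIs showed the same direction. The exceptions were DCC, UNC5A and SEMA6B, in 4 of 5 libraries each. SEMA7A could be compared in library 3 only. These genes were called from the sum of the same libraries, so such agreement was in part fixed in advance. Its share over all called genes was not computed. ROBO1, at 639 against 328 CPM, and ROBO2, at 1966 against 3844 CPM, fell just short of the 2-fold rule, in opposite directions.

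Without the KIT group 15 guidance genes were higher on the KIT-PVALB side (background 9.26%) and 10 on the other (6.42%). The calls of DCC (log2 -0.67), EPHB1 (0.39) and EPHA7 (-0.92) ended. ROBO1 (1.28), ROBO2 (-1.49) and PLXNA4 (-1.40) came to lie past 2-fold. EPHB6 moved to -3.87 and SEMA3G to -2.31.

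Calls were also tried with every nucleus thinned to 1000 UMIs, with the mean of each nucleus's own CPM, with Leiden clustering at resolution 0.5 (coarser) and 2.0 (finer) in place of 1.0, and with nuclei grouped singly by their own marker UMIs. With single nuclei the side calls of UNC5D (log2 -0.18), EPHA7 (-0.61), SEMA3D (-0.87), SEMA3C (-0.84), SEMA4D (-0.94) and PLXND1 (-0.97) ended. So did that of PLXNA1 (0.81), which also ended at resolution 2.0 (0.92) and as a mean over nuclei (0.98). UNC5D was at -1.44 at resolution 2.0. Thinning took EPHA8 to -0.40, SEMA3G to -0.90, SEMA6B to 0.38, UNC5A to 0.55 and PLXNA1 to 0.48, each on fewer than 50 UMIs.

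**Figure D2:**
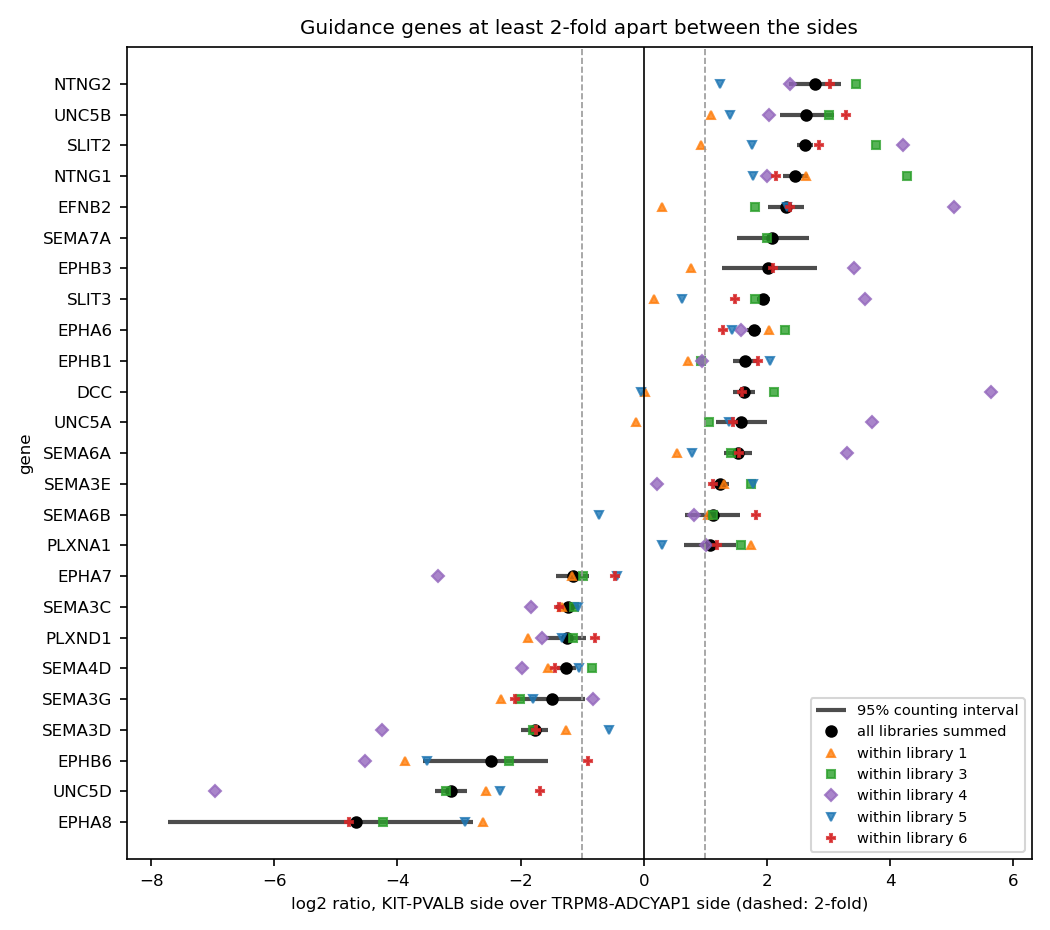
Log2 ratio of CPM between the KIT-PVALB and the TRPM8-ADCYAP1 side for the 25 guidance genes at least 2-fold apart, with the 95% counting interval (bar), the pooled value (black) and the value within each library (coloured); dashed lines mark 2-fold. The library 4 points of UNC5D, DCC, EFNB2 and UNC5A lie far from the others, while the 9 genes at the bottom are negative in every library shown.

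Among ligands, class 3 semaphorins had separate highest groups. SEMA3A, the classic repellent of sensory axons, was at 115 CPM (102 to 128) in the GFRA2 group and at 19.6 CPM in the other 7, 5.84-fold (4.96 to 6.88) higher. Its GFRA2 levels were 109, 146, 94.1 and 141 CPM in libraries 1, 3, 5 and 6. In each of these libraries the GFRA2 level was above that of every other group, although the NTRK3 nuclei of library 3 came close, at 140 CPM. SEMA3D, linked to vascular and peripheral patterning, was at 248 CPM (231 to 265) in the ADCYAP1 group and 4.17-fold (3.78 to 4.59) higher there. SEMA3C, a secreted ligand best known from heart development, was at 213 CPM (198 to 229) in the same group, 3.01-fold (2.73 to 3.32) higher. Both were higher in ADCYAP1 nuclei in 5 of 5 libraries, from 144 to 416 CPM for SEMA3D and from 111 to 284 CPM for SEMA3C. Between the sides, SEMA3D and SEMA3C were 3.40-fold and 2.35-fold lower on the KIT-PVALB side.

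SEMA3E, the PLXND1 ligand, was highest in the NTRK2 group, at 262 CPM (226 to 302), and next in the KIT group, at 189 CPM (165 to 216). It was 3.59-fold (3.07 to 4.19) and 2.60-fold (2.24 to 3.00) above the respective other groups, and 2.36-fold (2.12 to 2.62) higher on the KIT-PVALB side. The KIT levels lay between 213 and 260 CPM in libraries 1, 3, 5 and 6. PLXND1 itself was highest in the IL31RA group, at 58.4 CPM, where SEMA3E was at its lowest, 38.2 CPM. SEMA3G, a secreted semaphorin of vessels, was at 40.7 CPM (34.4 to 47.8) in the IL31RA group and 6.37-fold (4.85 to 8.39) higher, at 53.2, 63.4, 33.5 and 24.8 CPM in libraries 1, 3, 5 and 6. The side ratio of SEMA3G was -1.48 on the log2 scale and -2.25 without library 4. SEMA3B was highest in the PVALB group (25.4 CPM, 2.32-fold), a call that ended without library 4 (log2 0.40) or as a mean over nuclei (0.72) and grew without library 1 (2.32). SEMA3F, with 187 UMIs, was near level between the PVALB and GFRA2 groups, at 16.1 and 15.8 CPM.

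Of the membrane-bound semaphorins, 3 of 12 with 50 UMIs were at least 2-fold higher on the KIT-PVALB side, where 7.43% of all genes were, and 1 was lower, where 4.2% were. SEMA7A, a GPI-linked ligand that also binds integrins, was at 70.0 CPM (52.1 to 92.0) in the NTRK2 group and 3.81 CPM elsewhere. By cluster, SEMA7A was highest in PVALB cluster 17, at 113 CPM, and GFRA2 cluster 13 held 46.2 CPM (25 UMIs). Within the NTRK2 group SEMA7A was at 104 CPM in cluster 14 (48 UMIs), with 3 UMIs in cluster 7. Cluster 14 joined NTRK2 with a score of 1.28, the lowest of the 21 clusters, where cluster 7 scored 3.51. The NTRK2 level of SEMA7A thus rests mainly on the cluster with the weakest score. At resolution 0.5 the NTRK2 call ended (log2 0.73). Nearly all of it came from library 3. Without that library the log2 ratio of the NTRK2 group moved from 4.20 to 7.69, over few UMIs, and the side ratio from 2.09 to 1.12. In the PVALB group the SEMA7A call (log2 1.13) ended without library 5 (0.92) or library 6 (0.56) and was 2.60 without library 1. SEMA6A, which binds PLXNA2 and PLXNA4, was at 98.8 CPM in the KIT group (2.74-fold, 2.23 to 3.34) and 69.9 CPM in the NTRK3 group. The KIT call ended when thinned (log2 0.85), as a mean over nuclei (0.78) and with single nuclei (0.46). It was 2.89-fold (2.48 to 3.37) higher on the KIT-PVALB side. SEMA6B was 4.45-fold (3.21 to 6.12) higher in the NTRK3 group, at 31.7 CPM. That level came mainly from library 6, with 59.9 CPM against 7.58 to 18.3 CPM in libraries 3, 4 and 5. Without library 6 its log2 ratio moved from 2.15 to 1.24 for the NTRK3 group and from 1.12 to 0.72 between the sides.

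SEMA4D, the PLXNB1 ligand, was 2.39-fold (2.15 to 2.67) lower on the KIT-PVALB side, with 44.0 CPM in the PVALB group and 207 CPM in the GFRA2 group. The smaller NTRK3 calls were unstable. SEMA4A (2.27-fold) turned to a log2 ratio of -0.33 without library 6, SEMA5A (2.04-fold) fell to 0.42 when library 4 was left out and to 0.97 without library 2, and SEMA5B (2.19-fold) to 0.99 without library 5. SEMA5A kept its call in 11 of 18 alternatives and was at 0.50 as a mean over nuclei, and SEMA5B was at 0.55 with single nuclei. The remaining members were flatter. SEMA4B and SEMA4F were highest in the IL31RA group (53.5 and 62.0 CPM), SEMA4C in the NTRK3 group (16.1 CPM), and SEMA6C and SEMA6D in the KIT group (16.7 and 217 CPM).

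Receptors for semaphorins also split. PLXNA2 was at 314 CPM (293 to 335) in the GFRA2 group, 3.44-fold (3.16 to 3.76) above the others, with 98.8, 212, 420 and 431 CPM in libraries 1, 3, 5 and 6. It was 2.36-fold higher in the NTRK3 group too, but without library 4 that log2 ratio fell from 1.24 to 0.69. PLXNC1, the SEMA7A receptor, was at 395 CPM (372 to 420) in the GFRA2 group, 3.16-fold (2.92 to 3.41) higher, and between 298 and 350 CPM in libraries 1, 3, 5 and 6. A single nucleus held 26.3% of its 1075 UMIs in that group. Both genes were thus called higher in the group in which SEMA3A was highest.

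PLXNA4, partner of NRP1 in SEMA3A signalling, was the most counted plexin, with 11790 UMIs. It was at 1143 CPM in the IL31RA group (2.05-fold, 1.97 to 2.13) and 1113 CPM in the KIT group. The IL31RA call ended without library 1 (log2 0.97), library 3 (0.98) or library 6 (0.96), and was kept in 12 of 18 alternatives. The low groups were PVALB, at 94.2 CPM, 7.88-fold (6.72 to 9.31) below the others, and GFRA2, at 238 CPM. In the PVALB group all 3 libraries were low, at 109, 62.0 and 61.8 CPM. PLXND1 was called for the IL31RA group (2.20-fold, 1.85 to 2.61), a call that ended without library 1 (log2 0.91) or at resolution 0.5 (0.86), and it was 2.38-fold (1.91 to 3.00) lower on the KIT-PVALB side. PLXNA1 was at 22.9 CPM in the PVALB and 22.6 CPM in the NTRK3 group, with overlapping library values. Its PVALB call ended without library 3 (log2 0.95), and its side ratio of 1.07 fell to 0.91 or 0.93 when library 1 or library 3 was left out. PLXNA3 was highest in the KIT group, at 58.6 CPM, and was not called higher in any group.

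The neuropilins had different highest groups. NRP2, the co-receptor for SEMA3F, was at 229 CPM (203 to 258) in the KIT group, 3.35-fold (2.93 to 3.83) higher, with 152, 181, 350 and 269 CPM in libraries 1, 3, 5 and 6. NRP1, the SEMA3A co-receptor, was at 135 CPM (123 to 148) in the ADCYAP1 group, 2.24-fold (2.00 to 2.52) higher, and at its lowest, 29.8 CPM, in the GFRA2 group that held the most SEMA3A. The NRP1 call ended without library 6 (log2 0.80), as a mean over nuclei (0.80), as the mean of the ratios within libraries (0.95) and at resolution 0.5 (0.34). Neither neuropilin was called between the sides.

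SLIT ligands and ROBO receptors made up the most counted system. ROBO2 (chr13:177365712-179040027 in Sscrofa11.1, from RefSeq) was at 8066 CPM (7942 to 8191) in the TRPM8 group and 2613 CPM in the other 7, 3.09-fold (3.03 to 3.14) higher. The 4 libraries with enough TRPM8 nuclei held 4489, 9785, 6966 and 11234 CPM (libraries 1, 3, 5 and 6), and in each of them this exceeded every other group. The call ended when nuclei were thinned (log2 0.88, from 1.63) and as a mean over nuclei (0.89). ROBO2 was lowest in the PVALB group, at 458 CPM (425 to 492), 7.72-fold (7.18 to 8.31) below the rest. The 3 PVALB libraries, at 577, 145 and 198 CPM, were all below every other group and library with at least 10 nuclei.

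ROBO1, its neighbour on the chromosome (chr13:175348223-176479482), had a different order. It was at 1172 CPM (1125 to 1220) in the NTRK3 group and 1144 CPM (1068 to 1224) in the NTRK2 group, and at 58.6 CPM (45.7 to 74.1) in the KIT group. Over libraries the NTRK3 level ran from 732 to 2714 CPM, while only library 3 held at least 10 NTRK2 nuclei. Which of these groups was higher was therefore not settled. ROBO1 was 3.54-fold (3.37 to 3.72) higher in the NTRK3 group. Its NTRK2 ratio of 1.53 on the log2 scale turned to -0.01 without library 3, and was 0.60 at resolution 2.0 and 0.94 with single nuclei. The KIT group was thus second highest for ROBO2, at 4148 CPM, and lowest for ROBO1. ROBO4, the endothelial family member, had 56 UMIs, and its IL31RA call (2.06-fold, 1.13 to 3.66) ended without library 1, 3 or 6 (log2 0.82, 0.88 and 0.94), at resolution 0.5 (0.46) and with single nuclei (0.36).

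SLIT2 was at 744 CPM (707 to 783) in the NTRK3 group and 67.5 CPM elsewhere, 11.0-fold (10.2 to 11.9) higher. Its NTRK3 levels were 1448, 800.0, 309 and 559 CPM in libraries 3, 4, 5 and 6, and all of them lay above every library value of the other groups. SLIT3 followed the same group, at 991 CPM (947 to 1035) and 9.12-fold (8.54 to 9.75) higher, with 807, 1942, 277 and 497 CPM in those libraries. A single nucleus held 514 of the 1969 SLIT3 UMIs there. Library 4 carried much of it: without library 4 the log2 ratio moved from 3.19 to 2.25 for the NTRK3 group and from 1.94 to 1.09 between the sides. SLIT1 had its highest level in the KIT group, at 398 CPM (363 to 435), 3.61-fold (3.26 to 4.00) higher, and was 195, 285, 573 and 527 CPM in libraries 1, 3, 5 and 6. So of 3 ligands with shared receptors, 2 were highest in the group with the highest pooled ROBO1 level, and the other in the group with the lowest.

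**Figure D3:**
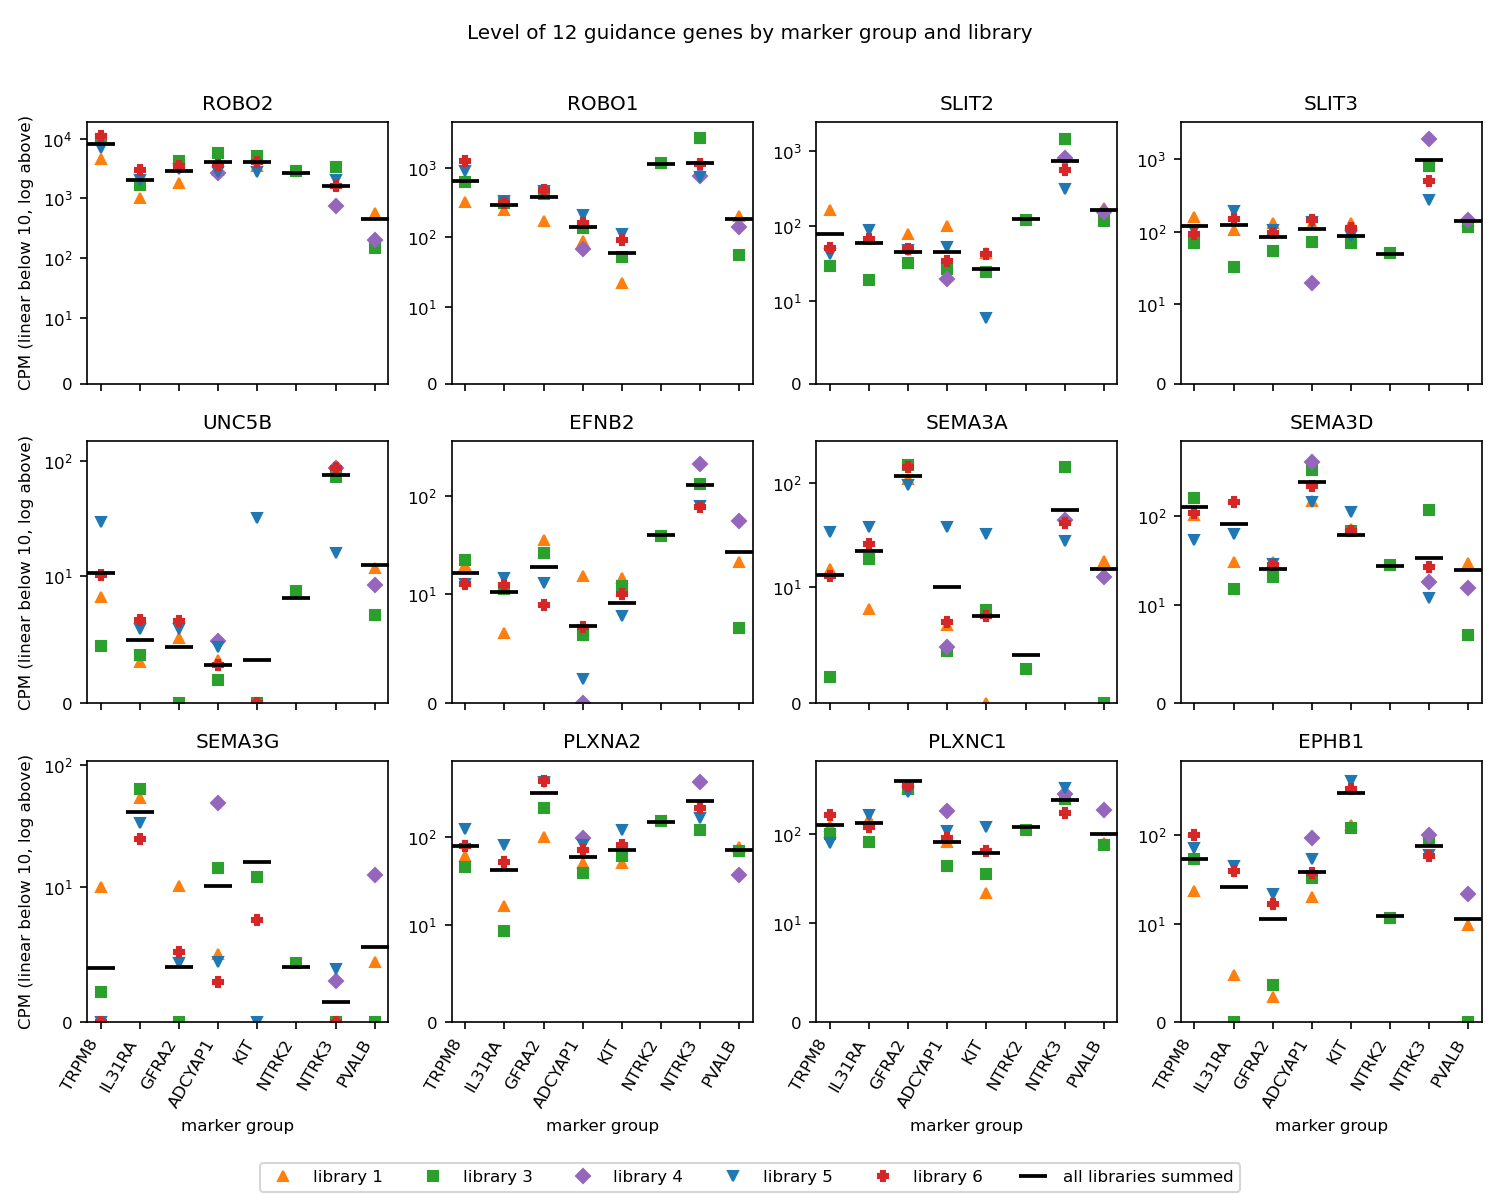
CPM of 12 guidance genes in the 8 marker groups, with 1 coloured point per library holding at least 10 nuclei of the group and a black bar for all libraries summed; the axis is linear below 10 and logarithmic above. ROBO2 is highest in the TRPM8 and lowest in the PVALB column, SLIT2, SLIT3, UNC5B and EFNB2 peak in the NTRK3 column, and SEMA3A, PLXNA2 and PLXNC1 in the GFRA2 column.

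Netrin ligands were counted sparsely, with 653 UMIs for the netrins and 1218 for the membrane-anchored netrin-G proteins. NTNG1, which binds the synaptic protein LRRC4C, was at 291 CPM (253 to 333) in the NTRK2 group, 6.50-fold (5.56 to 7.59) higher, and at 146 CPM in the NTRK3 group, 3.39-fold (2.94 to 3.89) higher. The NTRK3 levels were 136, 91.6, 190 and 181 CPM in libraries 3, 4, 5 and 6, and the NTRK3 call ended with single nuclei (log2 0.58). Its PVALB call (2.08-fold) rested on library 1: the level was 135 CPM there, 0 in library 3 and 52.6 CPM in library 4, and without library 1 the log2 ratio was -0.64. NTNG2, the paralog that binds LRRC4, was at 92.6 CPM (79.7 to 107) in the NTRK3 group and 5.36 CPM elsewhere, 17.3-fold (13.2 to 22.7) higher. Library 4 gave its highest level, 163 CPM, against 30.3 to 76.4 CPM in libraries 3, 5 and 6. Without it the log2 ratio of NTNG2 moved from 4.11 to 3.50, and from 2.78 to 2.13 between the sides.

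The secreted netrins were weaker. NTN1, the founding member, was at 21.6 CPM in the NTRK3 group (2.41-fold, 1.67 to 3.42), and the call ended without library 6 (log2 0.97), with single nuclei (0.90) and as the mean of the ratios within libraries (0.76). NTN4 (48.0 CPM, 2.33-fold) and NTN5 (11.0 CPM, 2.59-fold over 8 UMIs) were called for the NTRK2 group. Without library 3, which leaves few NTRK2 nuclei, their log2 ratios were 2.83 and 3.69. At resolution 0.5 both calls ended (0.74 for NTN4 and 0.69 for NTN5), NTN4 was at 0.41 when thinned, and NTN5 was at -0.63 with single nuclei.

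DCC, the attractive netrin receptor, was at 438 CPM (401 to 477) in the KIT group and 32.8 CPM elsewhere, 13.4-fold (11.8 to 15.1) higher, with 166, 679, 103 and 229 CPM in libraries 1, 3, 5 and 6. A single nucleus held 39.2% of the 523 DCC UMIs of the group. Within the group it sat in 1 small cluster. Cluster 20, of 34 nuclei, held 1613 CPM, where the other KIT clusters held 129 and 89.0 CPM. That cluster scored 2.77 for KIT and 2.50 for NTRK2, so its group is the least certain of the KIT clusters. Without it the log2 ratio of DCC moved from 3.74 to 1.66 for the KIT group and from 1.63 to 0.03 between the sides. Without the whole KIT group the side ratio was -0.67. No cluster outside the KIT group exceeded 72.9 CPM of DCC.

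The 4 UNC5 receptors turn netrin responses to repulsion. UNC5B was at 75.0 CPM (63.4 to 88.0) in the NTRK3 group and 5.95 CPM elsewhere, 12.6-fold (9.64 to 16.5) higher, with 72.0, 87.0, 15.8 and 86.6 CPM in libraries 3, 4, 5 and 6. UNC5A was at 48.3 CPM (39.1 to 59.0) there, 6.65-fold (5.01 to 8.82) higher. A single nucleus held 30 of the 96 UNC5A UMIs. Library 4 held 91.6 CPM of UNC5A against 19.8 to 29.3 CPM in libraries 3, 5 and 6, and without it the log2 ratio moved from 2.73 to 1.86, and between the sides from 1.58 to 0.85. UNC5C was called for 3 groups at 2.04 to 2.26-fold, with 137 CPM in NTRK3, 136 CPM in NTRK2 and 121 CPM in IL31RA nuclei. Each of these calls ended when a library was left out: the NTRK3 log2 ratio fell to 0.48 without library 3, the NTRK2 ratio to 0.42 without the same library and 0.98 without library 1, and the IL31RA ratio to 0.93 when library 1 was left out. By cluster, UNC5C was at 438 CPM in NTRK3 cluster 8 and 330 CPM in NTRK2 cluster 7, both mainly of library 3, but at 80.6 and 21.8 CPM in the other clusters of those groups.

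**Figure D4:**
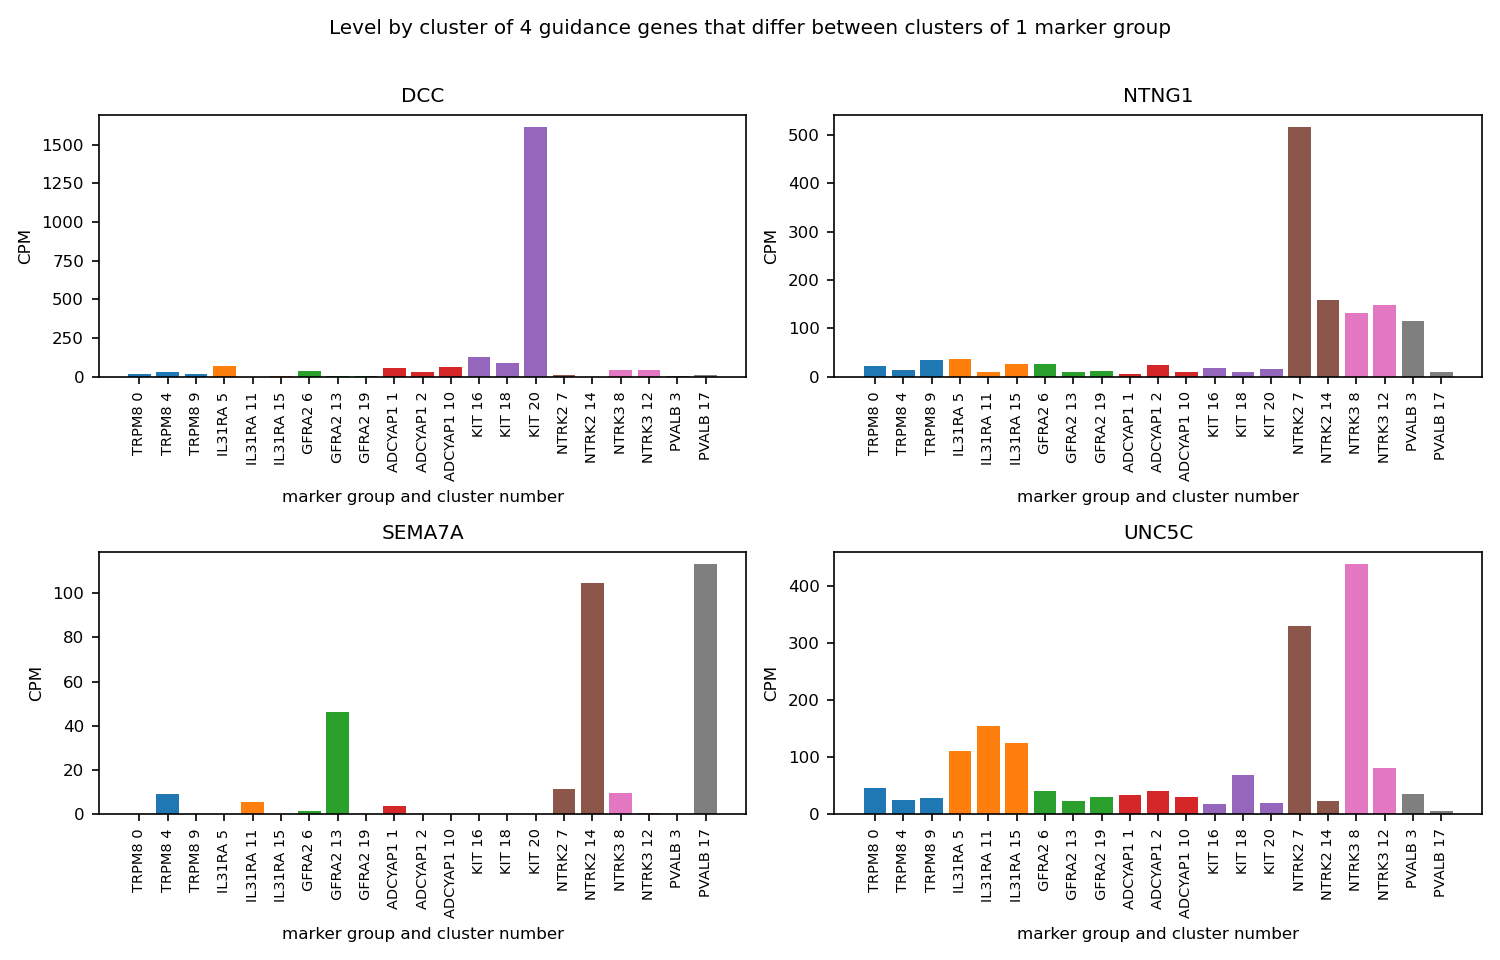
CPM of DCC, NTNG1, SEMA7A and UNC5C in each of the 21 clusters, labelled by marker group and cluster number and coloured by group. DCC stands in KIT cluster 20 (1613 CPM), NTNG1 in NTRK2 cluster 7 (516 CPM), SEMA7A in clusters 13, 14 and 17, and UNC5C in NTRK2 cluster 7 and NTRK3 cluster 8, so the mean of a group hides unequal clusters.

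UNC5D (chr15:50197131-50804604) differed from UNC5A and UNC5B, which were highest in the NTRK3 group. It was at 982 CPM (939 to 1027) in the TRPM8 group and 35.3 CPM in the other 7, 27.8-fold (25.3 to 30.6) higher. The TRPM8 nuclei of libraries 1, 3, 5 and 6 held 310, 1442, 737 and 501 CPM, and each of these was above the level of every other group in every library. Between the sides UNC5D was 8.72-fold (7.29 to 10.5) lower on the KIT-PVALB side. A single nucleus of library 4, with 68171 UMIs and no TRPM8 UMI, held 684 UNC5D UMIs, 27.3% of all. Without library 4 the log2 ratio of the TRPM8 group moved from 4.80 to 4.15 and that of the sides from -3.12 to -2.49. At resolution 2.0 the TRPM8 ratio was 2.96. When nuclei were grouped singly by their own marker UMIs, the TRPM8 ratio turned to -0.80.

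That reversal was followed up within the group, a split chosen after the values were seen. The 2 deeper TRPM8 clusters held 206 nuclei, of which 100 had a TRPM8 UMI and 106 had none. UNC5D was at 130 CPM (106 to 159) in the nuclei with TRPM8 and at 3293 CPM (3136 to 3456) in those without, or 2231 CPM (2092 to 2376) without nuclei above 50000 UMIs. At least 2 UNC5D UMIs were found in 14 of the 100 and in 79 of the 106 nuclei, although the latter were shallower (median 2762 against 5149.5 UMIs). In the ADCYAP1 group, where UNC5D was at 12.7 CPM, this was so for 5 of 510 nuclei with a median of 4631 UMIs. The direction was the same in each library with both kinds: library 3 held 205 against 2953 CPM, library 5 held 184 against 1543 CPM and library 6 held 65.3 against 1521 CPM. TRPM8 also took part in forming the group, and 0 TRPM8 UMIs at this depth does not show that a nucleus lacked TRPM8 RNA.

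Other guidance genes divided the same nuclei. PLXNA4 was at 663 CPM in the nuclei without TRPM8 and 212 CPM in those with it. SEMA3D was at 242 against 82.9 CPM, and SEMA3E at 93.9 against 19.7 CPM. ROBO1 ran the other way, at 385 CPM without and 1130 CPM with TRPM8, as did ROBO2, at 6836 against 11084 CPM. PLXNA4, SEMA3D, ROBO1 and ROBO2 each had this direction in libraries 3, 5 and 6. SEMA3E had it in libraries 3 and 5 and was near level in library 6, at 42.5 against 39.9 CPM. The nuclei without TRPM8 also held TRPV1, the capsaicin channel, at 250 against 9.21 CPM, and SLC17A8, a vesicular glutamate transporter, at 174 against 26.3 CPM. GFRA2 was lower in them, at 43.9 against 129 CPM, and so was NEFH, at 252 against 495 CPM, both in each of libraries 3, 5 and 6. FOXP2 and CDH8, markers of the TRPM8 list, were present in both, at 348 and 433 CPM without and 446 and 504 CPM with TRPM8. Both were lower without TRPM8 in each of libraries 3, 5 and 6. For FOXP2 the levels were 310 against 537, 135 against 255 and 187 against 465 CPM. SCN10A was higher without TRPM8 in each of these libraries, at 108 against 19.7 CPM over all. ZNF521, of the GFRA2 list, was at 1132 against 426 CPM, but near level in libraries 5 and 6.

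**Figure D5:**
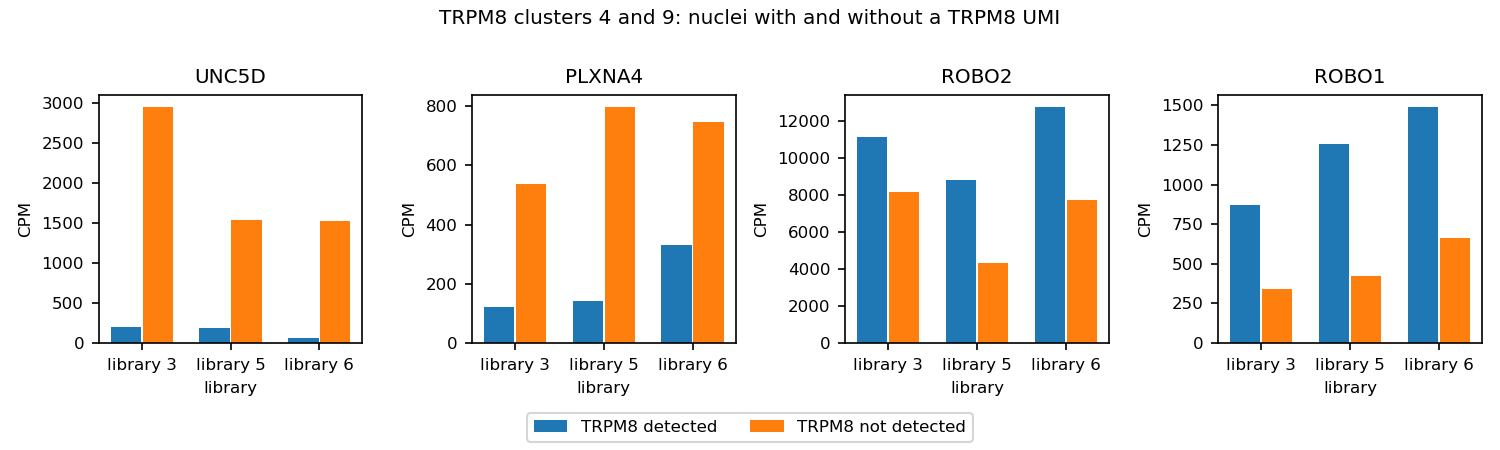
CPM of UNC5D, PLXNA4, ROBO2 and ROBO1 in libraries 3, 5 and 6, for nuclei of TRPM8 clusters 4 and 9 with (blue) and without (orange) a TRPM8 UMI. UNC5D and PLXNA4 are higher without TRPM8 and ROBO2 and ROBO1 higher with it, in all 3 libraries.

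Among ephrins, which are ligands held on the cell surface, EFNB2 was at 130 CPM (115 to 147) in the NTRK3 group and 15.04 CPM elsewhere, 8.66-fold (7.22 to 10.4) higher. Its NTRK3 levels were 133, 214, 79.2 and 77.7 CPM in libraries 3, 4, 5 and 6, all above every other group and library. Between the sides EFNB2 was 4.95-fold (4.07 to 6.05) higher on the KIT-PVALB side. EFNA5, a GPI-linked ephrin, was at 392 CPM (348 to 440) in the NTRK2 group, 3.19-fold (2.81 to 3.61) higher, with 761 CPM in cluster 7 and 176 CPM in cluster 14. That call ended at resolution 2.0 (log2 0.66) and with single nuclei (0.92). EFNB1 was highest in the TRPM8 group (32.5 CPM, 2.10-fold, 1.57 to 2.77), and the call ended without library 3 (log2 0.94), as a mean over nuclei (0.91) and with single nuclei (0.84). EFNA1 was highest in the ADCYAP1 group, at 24.0 CPM, and was not called higher in any group.

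EPHA receptors, which bind mainly GPI-linked ephrins, were spread over 5 highest groups. EPHA6 was at 509 CPM (478 to 542) in the NTRK3 group, 4.57-fold (4.22 to 4.94) higher, with 955, 466, 348 and 409 CPM in libraries 3, 4, 5 and 6. It was at 442 CPM in the NTRK2 group, but without library 3 the NTRK2 log2 ratio fell from 1.61 to 0.46, and at resolution 2.0 to 0.64. Between the sides EPHA6 was 3.46-fold (3.20 to 3.75) higher on the KIT-PVALB side. EPHA5 and EPHA3 were highest in the KIT group, at 205 CPM (180 to 232) and 73.7 CPM (59.1 to 90.8), 2.63-fold and 3.05-fold higher, and higher in 4 of 4 libraries. The EPHA5 call ended when thinned (log2 0.83). Neither was called between the sides.

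EPHA8 was at 21.8 CPM (17.3 to 27.2) in the IL31RA group and 2.20 CPM elsewhere, 9.91-fold (6.44 to 15.6) higher, with 16.1 to 24.3 CPM in libraries 1, 3, 5 and 6. Only 2 of its 110 UMIs were on the KIT-PVALB side, a ratio of 25.4 (6.86 to 212) in favour of the other side, and without library 1 the log2 ratio moved from -4.67 to -5.36. EPHA7 was highest in the ADCYAP1 group, at 75.0 CPM, and 2.22-fold lower on the KIT-PVALB side, with the KIT group lowest, at 9.21 CPM. The side call ended without library 4 (log2 -0.85), without the KIT group (-0.92), when thinned (-0.49), as a mean over nuclei (-0.90) and with single nuclei (-0.61). EPHA10 was called for the NTRK2 group (27.4 CPM, 2.21-fold), ending without library 4 (log2 0.94), at resolution 2.0 (0.89) and with single nuclei (0.97), and reaching 2.38 without library 3. EPHA4, highest in the NTRK3 group at 7.04 CPM, was not called in any group.

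EPHB receptors bind the B ephrins. EPHB1 was at 299 CPM (269 to 332) in the KIT group and 33.4 CPM elsewhere, 8.95-fold (7.81 to 10.3) higher, with 130, 121, 406 and 331 CPM in libraries 1, 3, 5 and 6. All 3 KIT clusters held more EPHB1 than any other cluster, at 147, 423 and 212 CPM. Its side ratio of 1.64 on the log2 scale fell to 0.39 without the KIT group. EPHB6, a family member that lacks kinase activity, was at 18.4 CPM (14.1 to 23.6) in the ADCYAP1 group, 3.81-fold (2.66 to 5.47) higher in 5 of 5 libraries. The ADCYAP1 call, at 1.93 on the log2 scale, ended at resolution 0.5 (0.25) and when thinned (0.09, on fewer than 50 UMIs). The side ratio of EPHB6 moved from -2.48 to -4.25 without library 6. EPHB3 was highest in the NTRK3 group (11.6 CPM, 4.02-fold, 2.32 to 6.80, over 23 UMIs) and 4.07-fold (2.41 to 7.06) higher on the KIT-PVALB side. Its PVALB call (log2 1.08) ended without library 4 (0.30) and at resolution 0.5 (0.68), and was 2.25 without library 1. As a mean over nuclei its NTRK3 ratio was 0.96 and its PVALB ratio 0.61. EPHB2 was at 13.6 CPM in both the GFRA2 and the NTRK3 group. EFNB2 and EPHB3 were thus highest in the same group and EPHB1 in another.

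Some members lie near each other in the genome, and their highest groups are given here for some of these pairs. SEMA3D (chr9:95280637-95486109), SEMA3A (chr9:95934937-96387950) and SEMA3E (chr9:96682178-96941074) follow each other with 0 protein-coding genes between them in RefSeq's Sscrofa11.1 annotation. Their highest groups were ADCYAP1, GFRA2 and NTRK2. SEMA3C lies 3 protein-coding genes further on and shared its highest group with SEMA3D. ROBO1 and ROBO2 are also direct neighbours, 886 kb apart, and were highest in the NTRK3 and the TRPM8 group. EPHA8 and EPHB2 lie 100 kb apart with 3 genes between them. EPHA8 was highest in the IL31RA group, and EPHB2 was level between the GFRA2 and NTRK3 groups, at 13.6 CPM. SEMA3F and SEMA3B, 65.9 kb apart and also with 3 genes between them, were both highest in the PVALB group. For SEMA3F the GFRA2 group was near level, at 15.8 against 16.1 CPM. How often neighbouring genes in general had different highest groups was not computed.

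Other genes of the pathway were taken from a list of 70 co-receptors and intracellular effectors that are not members, of which 64 were in the table and 60 reached 50 UMIs. On the KIT-PVALB side 7 of 60 (11.7%) were at least 2-fold higher, where 7.43% of all genes were, and 2 (3.33%) were lower, where 4.2% were, so the lower share lay below its background. The median log2 ratio was -0.10, and 0.06 over all genes. Among the higher were VAV3, an exchange factor downstream of EPH receptors, at 230 against 50.6 CPM (4.53-fold, 4.11 to 5.01), and DSCAM, a netrin co-receptor, at 503 against 124 CPM (4.06-fold, 3.81 to 4.33). The lower were VAV2 (2.84-fold, 2.45 to 3.32) and FARP2, a plexin-associated exchange factor, at 46.3 against 92.7 CPM (2.00-fold, 1.74 to 2.30), with CHL1 just short of the 2-fold limit at 1.92-fold. DSCAM and VAV3 were each at least 2-fold higher in the NTRK3 group, where UNC5A, UNC5B, SLIT2, SLIT3 and EFNB2 were highest. Of the pathway list, 9 of 60 genes (15%) were higher in that group, near the share of 13.3% over all genes. Between the sides DSCAM ran the other way in library 1 (log2 -0.42).

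Members below 50 UMIs were EPHB4 (31), NTN3 and PLXNB3 (19 each), EPHA1 (18), ROBO3 (14), EPHA2 (8), EFNB3 (5), EFNA4 (3) and EFNA2 (2), together with UNC5CL (2). PLXNB1 and SEMA4G had 0 UMIs in 2189 nuclei, which says only that their RNA was not detectable at this depth. UNC50, which is not a guidance gene, had 284 UMIs and was highest in the PVALB group, at 43.4 CPM. The guidance genes were kept out of the features used for clustering, yet UNC5D, DCC, SLIT2, EPHB1, NTNG1 and SEMA7A were each among the 10 genes with the highest fold in at least 1 cluster.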

How the data were processed

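The authors deposited 1 table of raw UMI counts, 30477 genes by 2189 nuclei with 17277376 UMIs in all and no normalization. Libraries were made with the 10x Genomics 3' chemistry, per the labels' protocols. The submitters' processing notes name Cell Ranger 6.0.1, Seurat and Sscrofa11.1, and give no role for any of them. Library depth ran from 760816 UMIs (library 2, 13 nuclei) to 4910023 (library 6), 30 nuclei above 50000 UMIs held 16.8% of all UMIs, and no barcode was shared between libraries (0). The median mitochondrial share of a nucleus was 18.5% in library 3, 4.08% in library 1 and 0.06% in library 6. Mitochondrial UMIs are part of every CPM total. Without them the NTRK3 call of SEMA5A ended (log2 0.915), and the NTRK2 group kept 10 guidance genes called higher, beside 9.55% of all genes. Doublets were not called.

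Counts were normalised to 10000 per nucleus and log-transformed in scanpy 1.11.5. Of the 2000 most variable genes, the guidance genes and the pathway list were left out (1976 features remained, with 19 members removed). Clusters came from 30 principal components, 15 neighbours and Leiden resolution 1.0, without integration. A cluster joined the marker with the highest log2 ratio of CPM (10 added) over the other clusters in the same libraries, from a minimum of 1. The lowest score that placed a cluster was 1.28, for cluster 14 of the NTRK2 group.

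CPM carry exact Poisson intervals and ratios exact conditional binomial intervals, at 95% and for counting error only. PCR duplicates are removed by UMIs, but nuclei are not replicates. A ratio was called from 2-fold with at least 50 UMIs over both sides, and where a group held 0 UMIs, 3 counts stood in as its floor. Ratios inside a library were computed from 10 UMIs and 10 nuclei on either side, after adding 0.5 counts. The calculation was tested on simulated data. The members, marker groups and lists were chosen with earlier results of these data known. Named were all members with 50 UMIs, with values for those called, and the 3 largest ratios per direction of the pathway list, of which 1 is not reported here. Alternatives covered totals, minimum, libraries, depth, thinning, resolution and grouping. RefSeq's Sscrofa11.1 table gave positions. Sequences were not used here.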

Additional observations from a re-analysis of the deposited data

How the results depend on the processing

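No paired analysis was possible because the labels give the libraries no replicate numbers; ratios within each library were computed instead. Of 82 called ratios, 37 stayed past 2-fold in every alternative run for them. These were 12 of 25 between the sides (19 alternatives) and 25 of 57 for groups (18 alternatives). The cause was not tested for any that did not. The share over all genes under the same alternative follows each count. Thinning every nucleus to 1000 UMIs (2064 nuclei, 34 guidance genes with 50 UMIs) gave 10 guidance genes higher on the KIT-PVALB side (6.34% of all genes) and 5 on the TRPM8-ADCYAP1 side (4.53%), with 1 in the TRPM8 (2.46%), 3 in the IL31RA (2.87%), 10 in the NTRK3 (10.9%) and 0 in the PVALB group (16.8%). These are 29.4% and 14.7% of the genes tested for the sides, near the 27.6% and 15.5% without thinning. Grouping single nuclei (1388 nuclei) gave 3 on the TRPM8-ADCYAP1 side (2.72%), 6 in the NTRK2 (3.35%) and 8 in the PVALB group (14%). Without a minimum of UMIs the counts were 5 in TRPM8 (27.4%), 6 in GFRA2 (23.9%), 7 in ADCYAP1 (21%), 17 in NTRK2 (43.2%) and 10 in PVALB (40.1%). Of the 67 guidance genes then tested these are 7.46%, 8.96%, 10.4%, 25.4% and 14.9%, each below the share over all genes. For the sides the shares stayed above it, at 29.9% (20.9%) and 13.4% (6.26%). Mean CPM over nuclei gave 1 in the TRPM8 (4.07%) and 3 in the PVALB group (15.7%). These are 1.72% and 5.17% of the guidance genes tested, both below the share over all genes. At Leiden resolution 0.5 the GFRA2 group had 5 (4.11%) and the ADCYAP1 group 2 (2.29%). At 2.0 the NTRK2 group had 5 (11.3%), or 8.77% of the guidance genes tested, below the share over all genes. Without nuclei above 50000 UMIs the PVALB group had 1 (18%). Leaving out 1 library at a time gave 2 to 7 for IL31RA. The 2 came without library 1 (2.64%), the 7 without library 2 (3.06%) or library 4 (3.13%). For NTRK2 it gave 9 to 26, with 9 without library 1 (11.6%) or library 4 (6.57%) and 26 without library 3 (49.5%). Those 26 were 47.3% of the guidance genes tested, below the share over all genes. For PVALB it gave 3 to 12, with 12 without library 1 (19.8%) and 3 without library 3 (17.5%) or library 4 (17.1%). For the sides the counts were 14 to 17 (7.1% to 7.84%) and 9 to 10 (4.08% to 5.11%), of 55 to 58 guidance genes tested.

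The direction turned for 7 ratios. On the log2 scale these were DCC between the sides without the KIT group (-0.67, added after seeing the data), NTN5 in NTRK2 with single nuclei (-0.63), and ROBO1 in NTRK2 without library 3 (-0.0088, with 1.71 without library 6 as its highest leave-one-out value). They were also SEMA4A in NTRK3 without library 6 (-0.33, up to 1.65 without library 4), UNC5C in NTRK2 at resolution 2.0 (-1.19) and UNC5D in TRPM8 with single nuclei (-0.80). NTNG1 in PVALB turned as the mean of within-library ratios (-0.72), without library 1 (-0.64, up to 1.35 without library 3), at resolution 2.0 (-0.49) and with single nuclei (-0.11). Depth limits genes under 50 UMIs, and no spread between pigs can be given.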
